A study of Rattus norvegicus with 5 samples.

Results

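Genes of the surface and the junctions of endothelial cells, the cells that line blood vessels, were followed in a preparation of rat proximal tubular cells. A list of 36 such genes was looked up among the probe sets that the platform annotation gives to exactly 1 gene symbol, and the brightest probe set of a gene by its mean over the 5 arrays stood for it. Of the 36 genes, 30 were measured, among 14506 genes with such a probe set, and each of the 30 had a single probe set. The other 6, Ptprb, Ecscr, She, Mmrn2, Vwf and Stab1, had no probe set under these symbols and were not analysed here. The proximal tubular cells, the epithelium of the first segment of the nephron, were isolated from type I diabetic rats of the Sprague-Dawley strain. They were kept for 2 h with C-peptide, the connecting peptide cleaved from proinsulin (3 arrays, animals 1 to 3), or without it (2 arrays, animals 1 and 2). Both groups therefore share the diabetic background. The labels do not give the dose of C-peptide, and do not say how diabetes arose, how old the animals were, whether treated and untreated cells came from the same animals, or in which batch an array was run. Total RNA was labelled with biotin and hybridised to a whole-transcript array.

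Endothelial cells hold together through adherens junctions built on VE-cadherin (Cdh5), through Pecam1 and Esam at the cell border, and through the tight junction protein claudin-5 (Cldn5). Vessels differ along the renal circulation. Glomerular capillaries carry open fenestrae, while the peritubular capillaries that wrap the tubules close theirs with diaphragms made of Plvap, and inflamed venules show selectins, Icam1 and Vcam1 to passing leukocytes. Most of these genes are not known as products of the tubular epithelium, while Icam1 and Vcam1 are also made by injured tubular cells.

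Each array gave 29215 probe-set intensities, and the array medians ranged from 60.1 to 95.9 as deposited. The arrays were therefore brought to 1 distribution by quantile normalisation, and intensities below are on that scale, with differences taken on log2(intensity + 16), C-peptide minus untreated. The median difference of all probe sets was then 0.02. Markers of the proximal tubule were measured in 9 of 9 cases, none at 0, and megalin (Lrp2), the endocytic receptor of this segment, lay at 3444, 3476 and 4991 with C-peptide and at 2383 and 2086 without.

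Most of the endothelial genes were lower on the C-peptide arrays, and the lowest among them differed by more than 2-fold. The median log2 difference of the 30 genes was -0.94, and 27 lay below 0, from Ehd3 at -1.46 to Gpihbp1 at 0.26. In 23 of the 30, the highest treated value was under the lowest untreated one, where 13.8% of all probe sets did, and 17.3% of the probe sets brighter than the median probe set. The reverse held for Cldn5 and Gpihbp1, and 16.1% of all probe sets were separated in that direction. At an unadjusted p under 0.05 in limma, 21 of the 30 were lower and 0 higher, where 6.31% of all probe sets were lower. With Benjamini-Hochberg adjustment over all probe sets, limma called 0 of the 30 at 0.05, as it called 0 (0%) of the 29215, of which 3321 had an unadjusted p under 0.05. At an adjusted p of 0.10, Lyve1 and Apold1 were lower, beside 0.144% of all probe sets. In another fit, probe sets dimmer than the median were left out before both the limma fit and the adjustment. Of the 27 genes that remained, 14 passed at 0.05, all lower, beside 2.18% of the probe sets kept. Robo4, 1 of the 14, cleared that brightness limit of 82.9 (deposited intensity) only through its untreated arrays, at 156 and 118, since its treated arrays were at 41.2 to 69.9, so its call there is no support. With the arrays as deposited, 5 of the 30 passed, all lower, beside 0.157% of all probe sets. Fewer endothelial cells in the treated preparations and less RNA of these genes per cell cannot be told apart in such bulk samples.

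**Figure D1:**
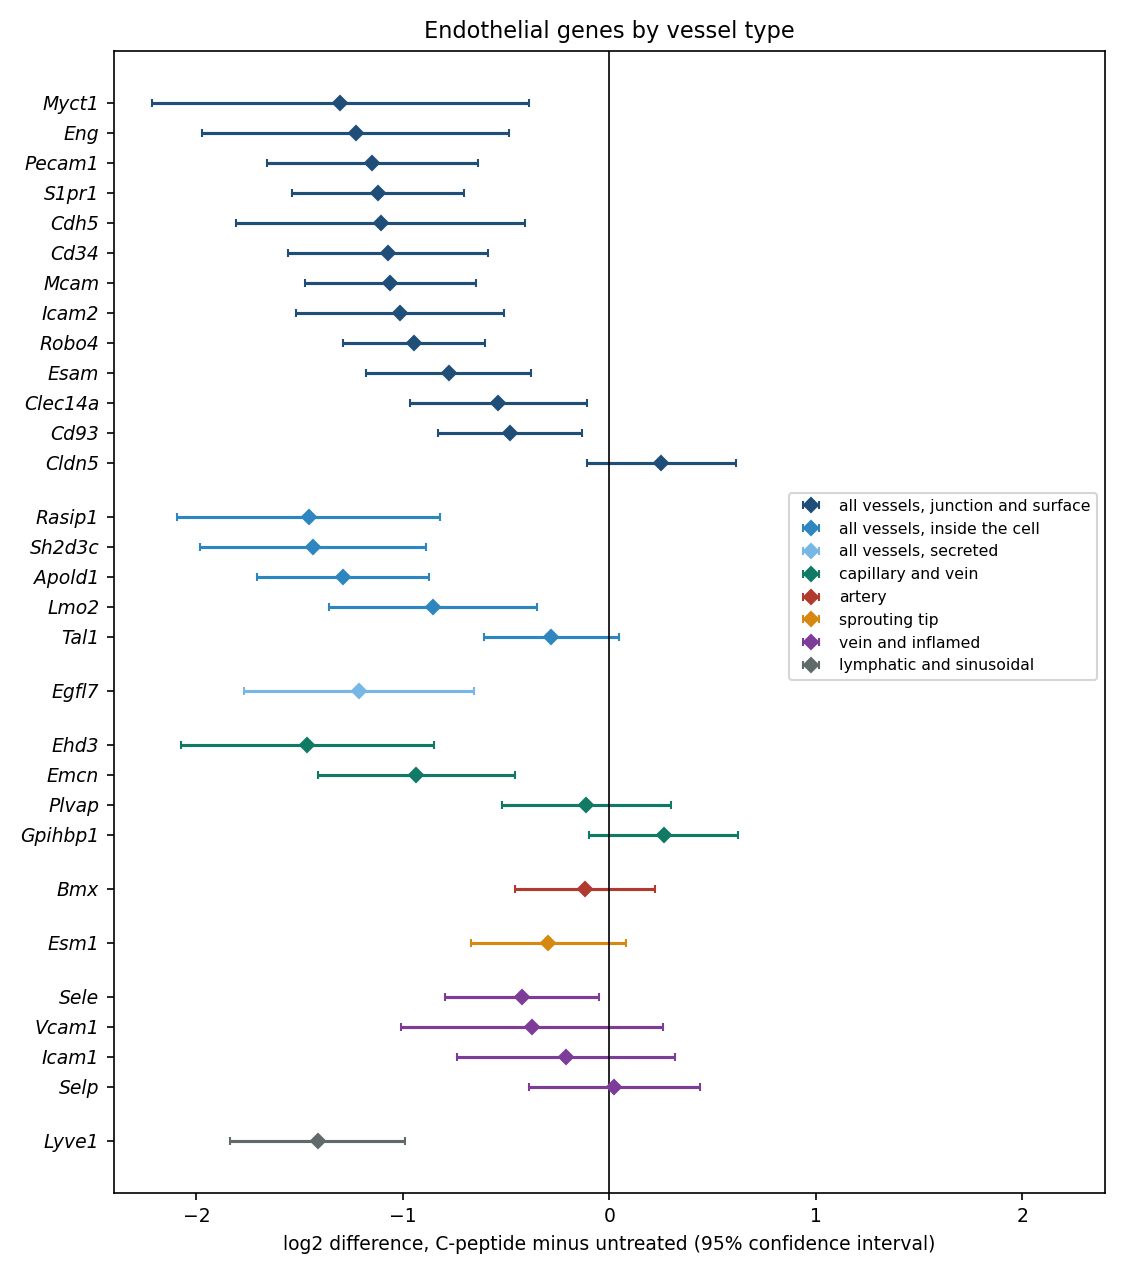
Log2 difference (C-peptide minus untreated, after quantile normalisation) of the 30 measured genes, grouped by vessel type, with the 95% confidence interval from limma (3 against 2 arrays). The genes of all vessels lie mostly near -1, while Cldn5, Plvap, Gpihbp1, Bmx, Icam1, Vcam1 and Selp have intervals that include 0, as do Tal1 and Esm1.

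The promoters of 6 genes are printed because they span the range of the differences, from Lyve1, Apold1, Robo4 and Ehd3, which were lower, to Plvap and Cldn5, whose intervals included 0. ETS transcription factors are known regulators of many endothelial genes. The capitals mark each AGGAAG, a form of an ETS site, found on either strand (CTTCCT on the strand printed). Other forms of the site were not searched for and are not marked. Sequences are from RefSeq (rat build GRCr8), 250 bases before to 50 after the annotated start, 5′ to 3′. Each line gives the gene, its window and the sequence.
Lyve1 (chr1:174410928-174411227, minus strand): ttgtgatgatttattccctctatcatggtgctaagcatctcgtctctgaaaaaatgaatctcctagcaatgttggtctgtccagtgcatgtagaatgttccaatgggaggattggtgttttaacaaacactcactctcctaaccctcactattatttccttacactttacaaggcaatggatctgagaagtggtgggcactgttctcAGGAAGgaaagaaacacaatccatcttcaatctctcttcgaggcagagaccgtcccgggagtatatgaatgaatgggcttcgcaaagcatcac
Apold1 (chr4:169552349-169552648, plus strand): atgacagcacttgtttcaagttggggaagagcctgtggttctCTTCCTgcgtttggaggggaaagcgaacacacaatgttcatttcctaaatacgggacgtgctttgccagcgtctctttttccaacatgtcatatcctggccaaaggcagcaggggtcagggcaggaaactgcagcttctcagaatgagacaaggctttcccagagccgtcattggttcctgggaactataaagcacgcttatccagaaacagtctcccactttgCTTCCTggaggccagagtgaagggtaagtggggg
Robo4 (chr8:45308489-45308788, plus strand): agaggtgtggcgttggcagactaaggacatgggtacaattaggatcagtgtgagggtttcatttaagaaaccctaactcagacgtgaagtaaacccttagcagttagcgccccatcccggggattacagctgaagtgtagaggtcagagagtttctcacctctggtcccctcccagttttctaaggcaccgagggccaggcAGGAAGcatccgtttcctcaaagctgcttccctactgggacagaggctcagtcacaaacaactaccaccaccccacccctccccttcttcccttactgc
Ehd3 (chr6:27417396-27417695, minus strand): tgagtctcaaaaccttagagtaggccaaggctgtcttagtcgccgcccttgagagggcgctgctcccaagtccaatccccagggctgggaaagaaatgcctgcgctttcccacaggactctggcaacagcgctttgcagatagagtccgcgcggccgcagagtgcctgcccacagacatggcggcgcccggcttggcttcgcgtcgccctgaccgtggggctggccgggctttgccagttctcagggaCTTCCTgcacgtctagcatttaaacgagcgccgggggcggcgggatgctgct
Plvap (chr16:18231230-18231529, minus strand): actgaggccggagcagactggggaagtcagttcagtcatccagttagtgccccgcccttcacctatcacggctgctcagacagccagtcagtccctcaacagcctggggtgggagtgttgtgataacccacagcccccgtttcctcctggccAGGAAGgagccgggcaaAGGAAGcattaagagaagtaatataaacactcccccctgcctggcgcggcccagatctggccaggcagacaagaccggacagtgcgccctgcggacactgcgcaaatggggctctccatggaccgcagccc
Cldn5 (chr11:95718549-95718848, minus strand): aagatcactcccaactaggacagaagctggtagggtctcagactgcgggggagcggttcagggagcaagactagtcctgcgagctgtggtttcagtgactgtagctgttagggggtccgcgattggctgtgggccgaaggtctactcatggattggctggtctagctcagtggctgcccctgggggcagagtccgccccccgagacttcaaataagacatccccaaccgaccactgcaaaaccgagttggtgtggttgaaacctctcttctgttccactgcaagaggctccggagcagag

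A promoter window was found for 19 of the 30 genes, by gene ID or, for Robo4, by symbol. AGGAAG occurred in 11 of the 19 (57.9%) and in 34.5% of all 33469 promoter windows of the same length. Plvap has 2 matches although its difference was near 0, and Cd34, with a difference of -1.07, has none in its window. The match is a description of these letters only.

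The genes of all vessels that act at the junction and the cell surface had a median log2 difference of -1.06 over 13 measured genes. In 12 of them the groups were separated with C-peptide lower, where 13.8% of all probe sets were, the exception being Cldn5. Cdh5, VE-cadherin, had intensities of 360, 516 and 239 with C-peptide and 895 and 686 without, a difference of -1.11 ± 0.30 (SE; limma adjusted p = 0.238). Pecam1, the homophilic adhesion molecule of the cell border, stood at 667, 1032 and 699 against 1930 and 1599 (-1.15 ± 0.22, limma adjusted p = 0.135). Both were lower on every treated array, and C-peptide animal 2 had the highest of the treated values for each. Esam, an immunoglobulin-domain protein of endothelial tight junctions, measured 455, 438 and 358 against 797 and 655 (-0.78).

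Receptors and adhesion proteins of the surface followed the same order of groups. S1pr1, the receptor for sphingosine-1-phosphate that supports barrier function, had intensities of 276, 345 and 251 against 701 and 594 (-1.12 ± 0.18, limma adjusted p = 0.108). Robo4, a roundabout receptor that stabilises vessels, lay at 54.1, 59.0 and 56.1 against 136 and 112 (-0.95 ± 0.15, limma adjusted p = 0.1005). The treated arrays of Robo4 were close to each other and the gap to the untreated arrays was wider than the spread within either group. Mcam (CD146), an adhesion molecule also found on pericytes, measured 280, 375 and 337 against 775 and 636 (-1.06 ± 0.18, limma adjusted p = 0.112). With dim probe sets left out, S1pr1, Mcam and Pecam1 had limma adjusted p values of 0.0190, 0.0214 and 0.0275.

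Eng, endoglin, a co-receptor for BMP and TGF-beta ligands, ranged from 810 to 1580 with C-peptide and stood at 3068 and 1981 without (-1.23 ± 0.32). Myct1, a membrane protein of endothelial cells, had the widest spread of the list, at 90.6, 271 and 155 against 338 and 504 (-1.30 ± 0.39). Its lowest value was on the array of C-peptide animal 1, at -2.01 relative to the untreated mean on the log2 scale, while animal 2 was at -0.58. Cd34, a sialomucin, had a difference of -1.07 and Icam2, a ligand of leukocyte integrins, -1.01. The related C-type lectin receptors Clec14a (-0.54 ± 0.18) and Cd93 (-0.48 ± 0.15) were nearer to 0 than the rest of the 12. Cd93 measured 491, 430 and 405 against 642 and 602, so that its groups were still separated.

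Cldn5, the claudin of endothelial tight junctions, was measured at 154, 119 and 134 with C-peptide and 115 and 108 without. All treated values were above the untreated ones, by a log2 difference of 0.25 with an interval of -0.11 to 0.61 (limma adjusted p = 0.590). As deposited, without scaling between arrays, its groups overlapped and the difference was 0.05. On the log2 scale, Cdh5 minus Cldn5 within an array was 1.14, 1.97 and 0.76 with C-peptide and 2.80 and 2.51 without. Averaged over arrays, this ratio differed by -1.36 between the groups, with no overlap. An exact permutation test over the arrays, two-sided by doubling the one-sided p, gave p = 0.2. In this form of the test, that is the smallest value 3 against 2 arrays allow. The pair was chosen after its values were seen.

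Genes of all vessels whose products act inside the cell included several of the lowest values. Apold1, an early response protein of endothelium, measured 664, 491 and 560 with C-peptide against 1548 and 1287 (-1.29 ± 0.18, limma adjusted p = 0.0974). With Cldn5 it was 1 of 2 genes of the list in which C-peptide animal 2 gave the lowest treated value. Sh2d3c, an adaptor that couples receptors to integrin signalling, stood at 134, 216 and 168 against 582 and 405 (-1.44 ± 0.23, limma adjusted p = 0.111). Rasip1, a Rap1 effector needed for the vessel lumen in mice, stood at 154, 249 and 166 against 694 and 414 (-1.46 ± 0.27, limma adjusted p = 0.131). Untreated animal 1 was the higher of the untreated arrays in all 3 genes, and every treated array was below both. Lmo2 and Tal1 encode partners in a transcription complex of blood and endothelial cells. Lmo2 measured 192, 308 and 200 against 425 and 425 (-0.85 ± 0.21, limma adjusted p = 0.212), and Tal1 79.1 to 87.0 against 98.4 and 112 (-0.28 ± 0.14, limma adjusted p = 0.498). The group's median over 5 genes was -1.29, and all 5 were separated with C-peptide lower, where 13.8% of all probe sets were. The 1 measured secreted gene, Egfl7, an endothelial matrix factor, had intensities of 297, 508 and 315 against 911 and 816 (-1.21 ± 0.24, limma adjusted p = 0.139).

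**Figure D2:**
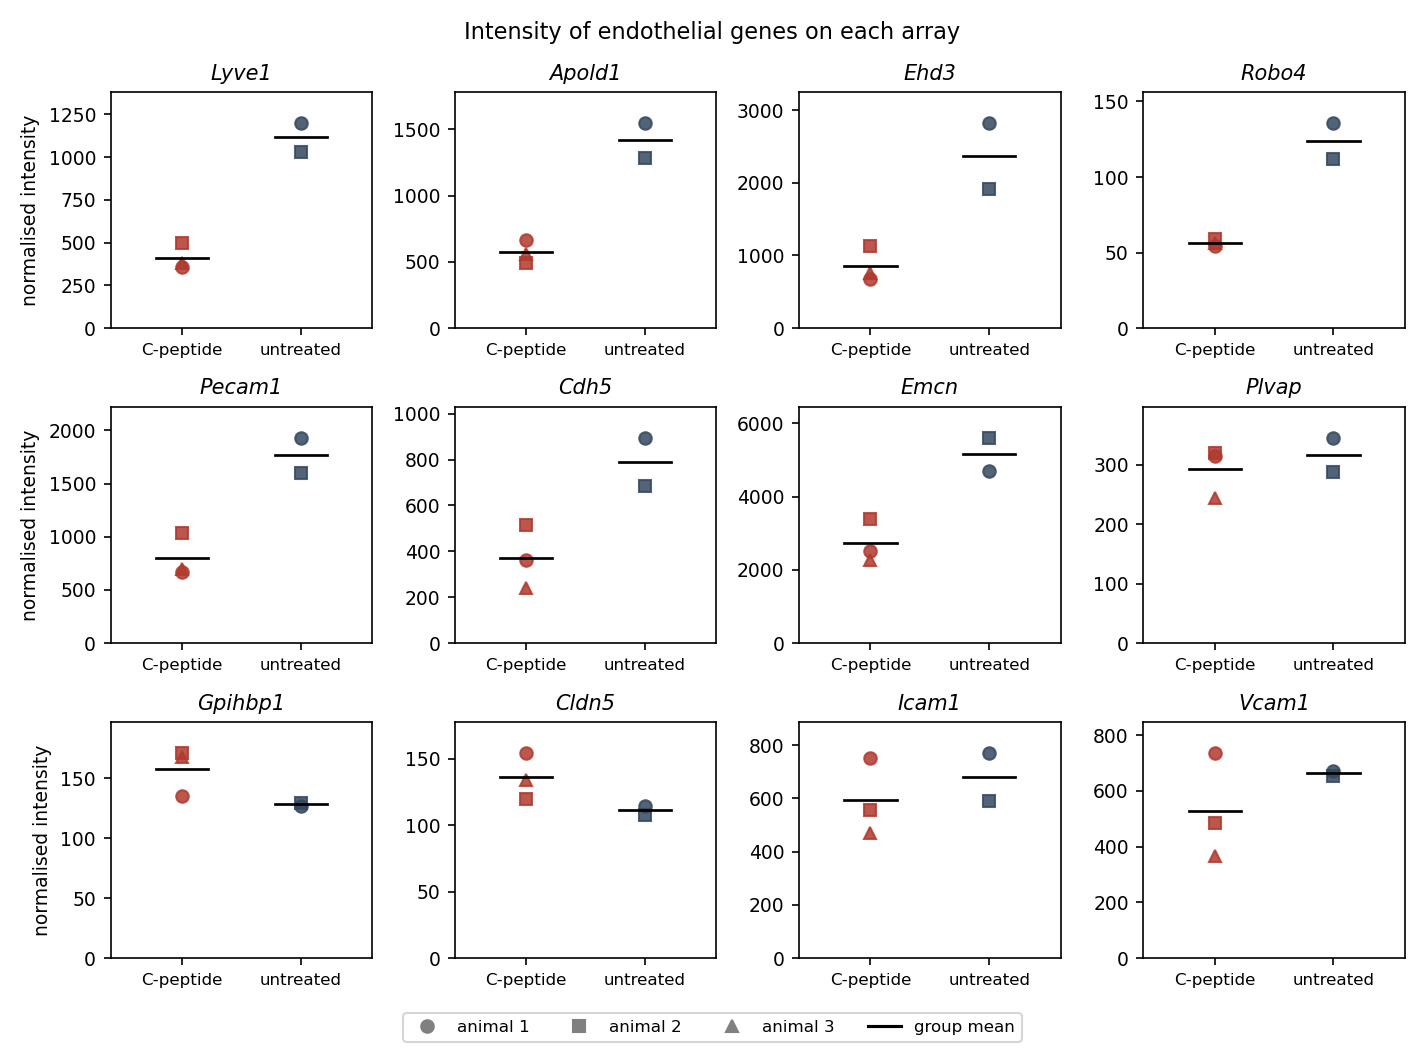
Normalised intensity of 12 of the genes on each array, with the group mean as a line and a separate vertical axis from 0 for each gene. Lyve1, Apold1, Ehd3, Robo4, Pecam1, Cdh5 and Emcn separate the groups with C-peptide lower, Gpihbp1 and Cldn5 with C-peptide higher, and the groups of Plvap, Icam1 and Vcam1 overlap.

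Capillary genes differed among themselves. Ehd3, an endocytic recycling protein that marks glomerular endothelium, was at 676, 1134 and 759 with C-peptide and 2825 and 1919 without (-1.46 ± 0.26, a 2.75-fold difference, limma adjusted p = 0.126). Emcn, endomucin, a sialomucin of capillaries and veins, was at 2507, 3394 and 2262 against 4703 and 5606 (-0.93 ± 0.20, limma adjusted p = 0.169). Plvap, of the diaphragms of peritubular capillaries, was at 315, 319 and 244 against 345 and 288, and its groups overlapped. Its difference was -0.11 with an interval of -0.52 to 0.30 (limma adjusted p = 0.855), an interval that does not reach the -1.46 of Ehd3. Gpihbp1, which anchors lipoprotein lipase on capillary endothelium, was at 136, 171 and 167 against 127 and 130. It was higher on every treated array, by 0.26 with an interval of -0.10 to 0.62 (limma adjusted p = 0.569), although its groups overlapped in the values as deposited.

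Within an array, Ehd3 minus Plvap on the log2 scale was 1.06, 1.78 and 1.57 with C-peptide and 2.98 and 2.67 without. Ehd3 was thus lower relative to Plvap on every treated array, and the mean difference between groups was -1.35. The ratio restates the differences above, since Ehd3 had the lowest of the list (-1.46) and Plvap a small one (-0.11). Of the 19 genes of all vessels, 18 were lower with C-peptide too, and the median of the 19 was -1.07. The ratio therefore cannot tell a glomerular difference from one shared by most vessels, with Plvap as an exception. The exact permutation test over arrays, two-sided, again gave the smallest possible p of 0.2. This and the ratio of Cdh5 to Cldn5 were the 2 ratios tested, and adjusted over both the p was 0.2.

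The genes of veins and of inflamed endothelium had a median of -0.29 over 4 genes. Sele alone was separated, with C-peptide lower, where 13.8% of all probe sets were. In the values as deposited, where all probe sets shifted by -0.13, Icam1 and Vcam1 were separated with C-peptide lower as well. Icam1, a ligand of leukocyte integrins, measured 753, 556 and 470 with C-peptide and 771 and 592 without (-0.21, interval -0.74 to 0.32, limma adjusted p = 0.777). Vcam1, the ligand of integrin alpha 4, measured 736, 483 and 365 against 670 and 654 (-0.37, interval -1.01 to 0.26, limma adjusted p = 0.656). For both, C-peptide animal 1 had the highest treated value and animal 3 the lowest, an order that Esam, Cd93 and Tal1 share. Sele, E-selectin, which leukocytes roll on, was dimmer than the median probe set, at 44.9, 61.6 and 48.2 against 76.6 and 71.7 (-0.42 ± 0.16, limma adjusted p = 0.389). Selp, P-selectin, which platelets also carry, was dim on every array, from 10.1 to 17.3 in all, with a difference of 0.02. Without C-peptide animal 3 the median of these 4 genes was -0.10.

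The remaining vessel types were represented by 1 gene each. Lyve1, the hyaluronan receptor of lymphatic vessels, which some macrophages and sinusoidal endothelia also express, had intensities of 359, 495 and 381 with C-peptide and 1200.0 and 1031 without (-1.41 ± 0.18, limma adjusted p = 0.0955). Its p value was the smallest of the list. Prox1, the transcription factor that specifies lymphatic endothelium, was at 39.4 to 55.0 against 41.3 and 48.4 (-0.01), and Pdpn, podoplanin, at 214 to 491 against 239 and 256 (0.20). Flt4, a VEGF receptor of lymphatic and fenestrated endothelium, had a difference of -1.13. The defining lymphatic gene Prox1 was thus dimmer than the median probe set, with overlapping groups. Bmx, a tyrosine kinase of arterial endothelium, was dim, at 18.9 to 24.4 against 24.1 and 27.1 (-0.12, interval -0.46 to 0.22). Esm1, endocan, a proteoglycan of sprouting tip cells, measured 249 to 329 against 350 and 354, a separated but small difference of -0.30 ± 0.16 (limma adjusted p = 0.535).

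Array by array, C-peptide animal 2 stood between the others and the untreated arrays. Summed over the 30 genes, the treated animals 1, 2 and 3 gave intensities of 11487, 14729 and 10470, whereas untreated animal 1 gave 25891 and untreated animal 2 gave 22755. The median over the 30 genes of the log2 value minus the untreated mean was -1.05, -0.59 and -1.03 for C-peptide animals 1, 2 and 3. C-peptide animal 2 held the highest treated value in 19 of the 23 genes that were separated with C-peptide lower, and animal 3 in 0. Untreated animal 1 was above untreated animal 2 in 18 of these 23.

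**Figure D3:**
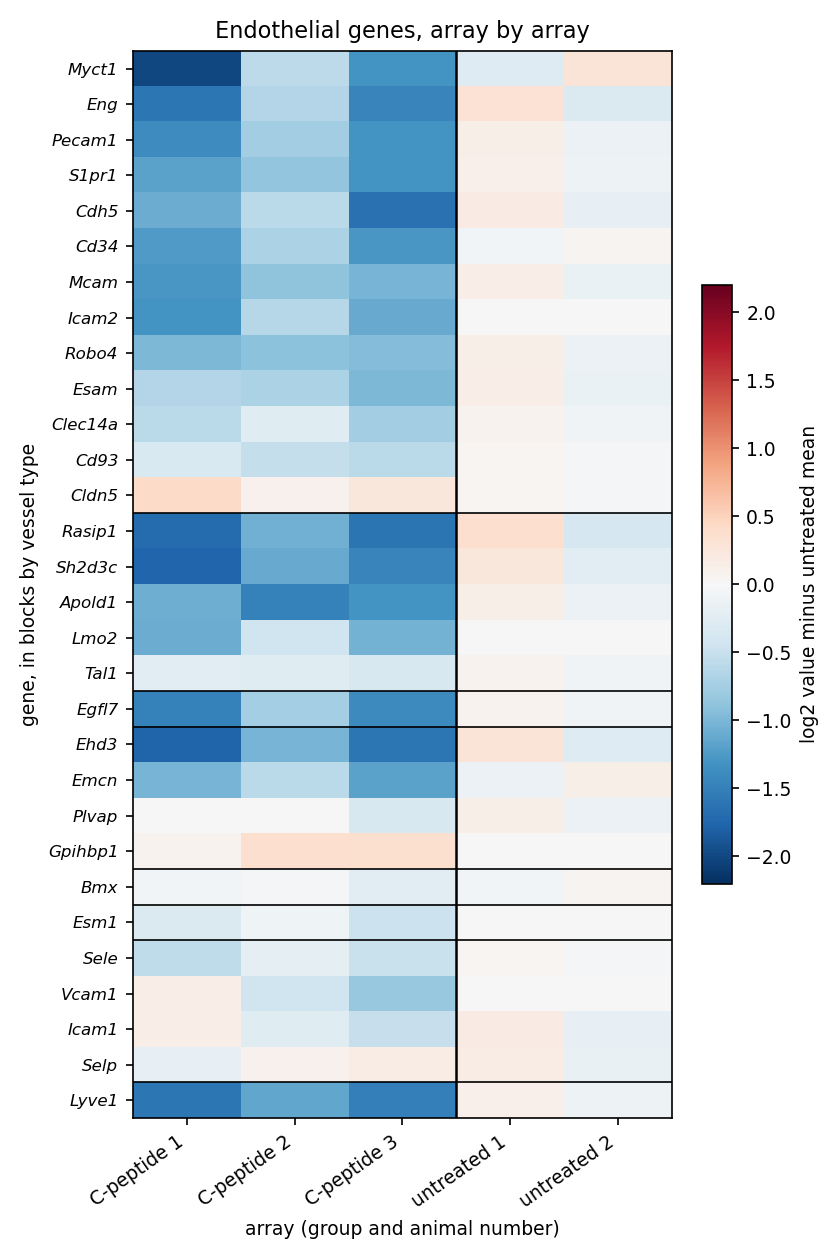
Log2 value minus the mean of the untreated arrays for the 30 genes (rows, in blocks by vessel type) on the 5 arrays (columns). Blue cells fill the C-peptide columns for most genes of all vessels, are paler for animal 2 and are absent or mixed for Cldn5, Plvap, Gpihbp1, Bmx, Icam1, Vcam1 and Selp.

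Other endothelial genes outside the list were mostly lower as well, but they were chosen with earlier results of these data known. Of 35 listed, 32 were measured. Of these, 29 were separated with C-peptide lower, where 13.8% of all probe sets were, and 0 with it higher, where 16.1% were. At an unadjusted p under 0.05 in limma, 28 were lower, where 6.31% of all probe sets were. Their median difference was -1.10, beside -0.94 for the surface and junction genes, and 0 passed at adjusted p 0.05. The 4 with the smallest p were Thbd, thrombomodulin (-1.22 ± 0.16), Rapgef5, a guanine nucleotide exchange factor of Rap proteins (-1.03 ± 0.14), Fli1, an ETS factor (-0.87 ± 0.14), and Nos3, the endothelial nitric oxide synthase (-1.05 ± 0.17), with limma adjusted p values of 0.0955 to 0.108. The 3 with overlapping groups, named after their values were seen, were Procr, the protein C receptor (0.00), Fabp4, a fatty acid binding protein of capillaries (0.17), and Cd36, a fatty acid transporter (-0.20).

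Listed partners of the surface and junction proteins had medians nearer to 0 than those proteins' own genes. Of 13 genes of the junction plaque and the Rap1 pathway, 6 were separated with C-peptide lower, where 13.8% of all probe sets were. Their median difference was -0.12. Rap1b, a small GTPase, was at -0.61 ± 0.14, Tjp1, the scaffold ZO-1, at -0.73 ± 0.22 and Jup, plakoglobin, at -0.65 ± 0.22. The catenins Ctnnd1 and Ctnna1, which bind cadherins in epithelia too, were at -0.12 and -0.09. The leukocyte and platelet partners of the adhesion molecules had a median of -0.25 over 7 genes, with Itga4, the integrin subunit that binds Vcam1, at -0.54 ± 0.17. Of the sphingosine-1-phosphate system 5 genes were measured beside S1pr1, with a median of 0.07 and a range from -0.11 to 0.23. None of these 25 genes passed at adjusted p 0.05 in limma. At an unadjusted p under 0.05 in limma, 6 were lower, where 6.31% of all probe sets were.

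Markers of some other cells were also lower, to different extents. Macrophage and other myeloid markers, of which 8 of 8 were measured, had a median of -0.51. Their summed intensities were 2086 to 3149 with C-peptide and 3335 to 3467 without. T and NK cell markers (7 of 7) had a median of -0.43, with sums of 773 to 891 against 1480 to 1612. Of these 7, Nkg7 differed most (-1.58), at 132 to 318 against 656 and 658.5. Gzmb came next (-0.62), and Cd3d was nearest to 0 (-0.07). The B cell markers measured (2 of 4) had a median of 0.05, with 182 to 204 against 174 and 174. Podocyte markers (6 of 7) summed to 1519 to 2511 against 3864 to 4691. Most of that sum came from Podxl (-1.32) and Clic5 (-1.22), both found in endothelium too. Of the other 4, the actin-associated Synpo (-0.64) and the receptor phosphatase Ptpro (-0.35) were also separated with C-peptide lower, while Wt1, a podocyte transcription factor (-0.17), and the slit diaphragm gene Nphs1 (0.11) had overlapping groups. Mesangial and smooth muscle markers (6 of 8) summed to 4684 to 5168 against 5077 to 5479, platelet markers (3 of 5) to 261 to 319 against 250 to 275, and proximal tubule markers (9 of 9) to 17598 to 23336 against 12289 to 15035. No measured marker of these lists was at 0 on any array. The part of these cells in the endothelial result was not tested. Leaving out the 11 measured genes marked here as also expressed by leukocytes, platelets or tubular cells left 19 genes. Their median was -0.95, and 15 were separated with C-peptide lower, where 13.8% of all probe sets were. The marks are not a full account of expression, so these 19 may still include genes that such cells make.

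**Figure D4:**
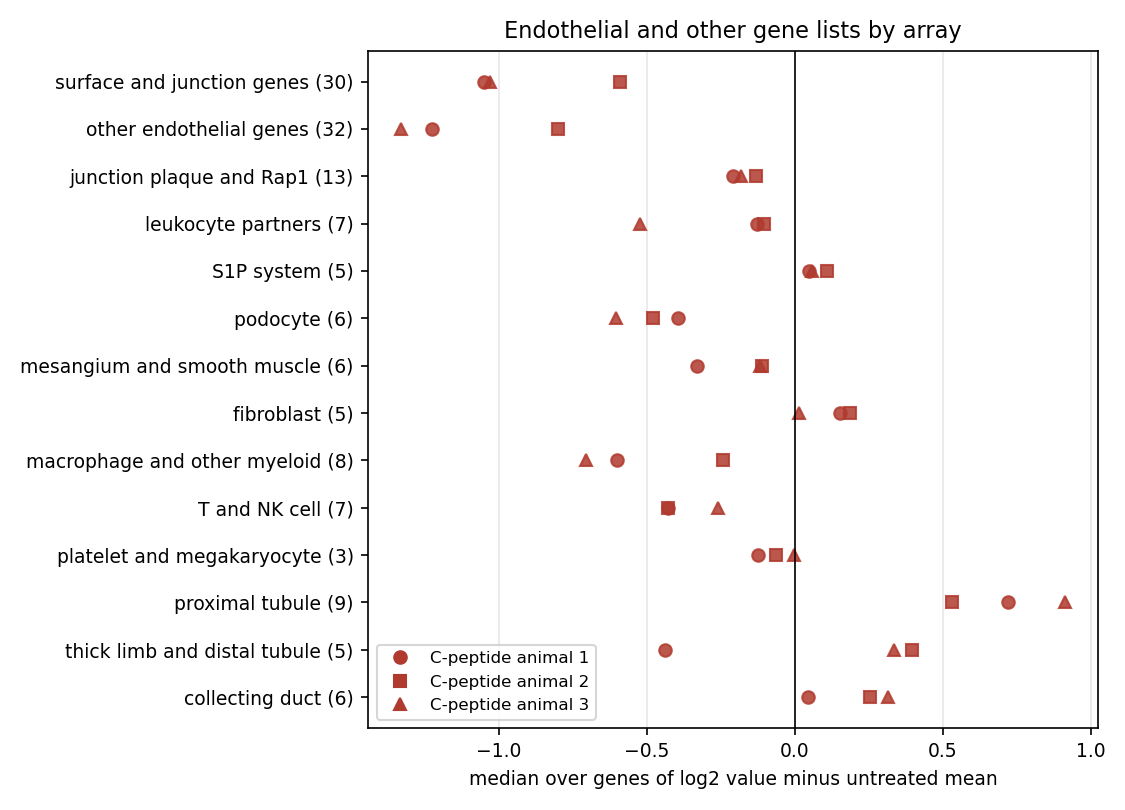
Median over the genes of a list (number measured in parentheses) of the log2 value minus the untreated mean, for each of the 3 C-peptide arrays. The surface and junction genes and the other endothelial genes lie lowest on all 3 arrays, myeloid, T and NK cell and podocyte markers between them and 0, and proximal tubule markers above 0.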

How the data were processed

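The arrays measured total RNA of isolated rat proximal tubular cells, 3 treated with C-peptide and 2 untreated. The authors deposited linear intensities, 1 for each probe set and array. The submitters' processing notes name PLIER and Affymetrix Expression Console 1.1, and no source used here gives a background correction or scaling. Array medians from 60.1 to 95.9 showed that the deposited intensities were not on 1 scale, so log2(intensity + 16) was quantile normalised, and intensities printed are 2 to that power less 16. Adding 16 understates the change of dim probe sets.

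Group differences were fitted by limma 3.58.1 (lmFit, then eBayes; R 4.3.3) without covariates, and the two-sided p-values of all 29215 probe sets were adjusted together by Benjamini-Hochberg. The labels name an animal for each array, so p-values measure the spread between these arrays, and their number limits the precision. Symbols came from the platform annotation, updated by gene ID through RefSeq (GRCr8) for 15279 of 15310 probe sets with 1 symbol. A further 323 probe sets had several symbols and 13582 none.

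The members, the vessel types and the other lists were chosen with earlier results of these data known. Values per array are given for up to 4 genes of a vessel type with the smallest p among those brighter than the median probe set (mean intensity 82.9), for genes whose sign went against their group, and for others of interest chosen after their values were seen. Alternatives are listed in the closing section.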

Additional observations from a re-analysis of the deposited data

How the results depend on the processing

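The number of calls depended on the setting, while the direction of the list did not. At adjusted p 0.05, where quantile normalisation called 0 probe sets and 0 members, limma called 52 probe sets and 5 members as deposited (46 lower and 6 higher), 29 and 2 after median centring, 1 and 0 at a pseudocount of 1, and 121 and 4 at a pseudocount of 64. It called 392 and 14 among probe sets above the median, 341 and 14 among probe sets with 1 symbol, and 208 and 11 with a trended, robust prior. With array weights it called 0 of both, and at a threshold of 0.10, 57 and 2. All members called in these settings were lower. The median over the members stayed between -1.10 and -0.78 in every setting run, and the as deposited values include the -0.13 by which all probe sets moved.

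The animal number as a replicate block gave 3 probe sets and 0 members, a member median of -0.83 and a median of -0.10 for vein and inflamed genes. The labels do not say that same-numbered arrays came from the same animal, so the numbers were not taken as pairs. Deviations of same-numbered arrays correlated at -0.03 for animal 1 and 0.01 for animal 2. The deviations of the 2 untreated arrays mirror each other, so these values cannot decide the pairing. Vein and inflamed genes had a median of -0.48 as deposited, and -0.39 to -0.10 when each array was left out in turn. Leaving out 1 C-peptide array called 0 members each time, with 23 to 25 separated and lower. That count can hardly fall when an array is dropped, and the share over all probe sets was not taken there, so it is no support. The member median was -0.894 without untreated animal 1 and -0.955 without untreated animal 2. In these fits the lone remaining untreated array is assumed to vary like the others. Members not marked as also expressed by leukocytes, platelets or tubular cells numbered 19. Of these, 15 were separated and lower in the main fit, where 13.8% of all probe sets were. Of the genes given per array by the naming rule, Selp and Plvap, both near 0, changed sign in some settings, and the others kept theirs. Each member had 1 probe set, so averaging probe sets changes nothing. The cause of the differences in calls was not tested. In the filtered fits, fewer probe sets entered the limma fit, with its variance prior, as well as the adjustment.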
